A study of Mus musculus with 8 samples.

Results

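The genes described here are 9 regulators of entry into and exit from mitosis: the phosphatase genes Cdc25a, Cdc25b and Cdc25c, the kinase gene Wee1, and Ube2c, Ube2s, Cdc20, Fzr1 and Fbxo5, whose products work with or against the anaphase-promoting complex. They were chosen by name, with earlier results of these data known. Every probe set whose platform annotation gave 1 of these symbols alone was taken. This made 16 probe sets for 9 of the 18193 named genes on the array. Transcript intensities came from spleen cells of 4 mice with acute myeloid leukaemia driven by the fusion gene MLL-AF10. In all mice the disease had been started by transplanting c-kit+ bone marrow stem and progenitor cells, immortalised by retroviral transduction, into sub-lethally irradiated syngeneic recipients, whose strain the labels spell CD57BL/6. The sources used here do not give the promoter that drove the fusion gene, the age of the mice, or whether the leukaemias came from separate transductions. Spleen cells of each mouse were split by flow cytometry for CD117, the surface receptor c-kit, giving a CD117pos fraction (high) and a CD117neg fraction (low or negative), with 1 array per fraction and mouse. The labels name no marker other than c-kit, so cells of the irradiated host may be present in either fraction. The mice are called by the endings of the array titles, _948, _951, _952 and _953, and per-mouse values are given in that order.

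Entry into mitosis is driven by the kinase Cdk1 bound to a B-type cyclin. Wee1 keeps Cdk1 off by phosphorylating it, and the Cdc25 phosphatases remove that phosphate, Cdc25a also acting on Cdk2 at the start of DNA replication. Exit from mitosis needs the anaphase-promoting complex (APC/C), a ubiquitin ligase whose activators are Cdc20 in mitosis and Fzr1 (Cdh1) in late mitosis and G1. Ube2c starts ubiquitin chains on APC/C substrates and Ube2s lengthens them, while Fbxo5 (Emi1) inhibits the complex during S and G2 phase. In haematopoietic tissue the transcripts of many of these genes are known to be higher in dividing progenitors than in mature myeloid cells.

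The promoters of 7 of the 9 genes were held in RefSeq windows of 300 bases (mouse build GRCm38.p6), from 250 bases before to 50 bases after an annotated start. Cdc25c and Wee1 did not match. Promoters of genes expressed in G2 and mitosis are known for the cell cycle genes homology region (CHR), bound by the DREAM and B-Myb-MuvB complexes, often beside CCAAT boxes bound by NF-Y. The windows of Ube2c, Cdc20 and Cdc25b are shown because these genes were higher in CD117pos cells, and that of Fzr1 as an example of a gene not called. They lie at chr2:164769679-164769978 (plus strand) for Ube2c, chr4:118437294-118437593 (minus strand) for Cdc20, chr2:131186698-131186997 (plus strand) for Cdc25b and chr10:81378321-81378620 (minus strand) for Fzr1. Each is written 5′ to 3′ on the strand of its gene, and the capitals mark matches to the CHR (TTTGAA or TTCGAA) and to the CCAAT box (CCAAT) on either strand, adjoining or overlapping matches forming 1 run.
Ube2c: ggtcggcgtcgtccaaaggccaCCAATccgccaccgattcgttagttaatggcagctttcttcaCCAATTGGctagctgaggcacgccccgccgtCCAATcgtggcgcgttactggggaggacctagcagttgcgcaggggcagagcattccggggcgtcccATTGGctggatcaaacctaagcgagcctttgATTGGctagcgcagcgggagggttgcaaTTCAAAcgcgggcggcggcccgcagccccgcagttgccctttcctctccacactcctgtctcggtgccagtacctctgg
Cdc20: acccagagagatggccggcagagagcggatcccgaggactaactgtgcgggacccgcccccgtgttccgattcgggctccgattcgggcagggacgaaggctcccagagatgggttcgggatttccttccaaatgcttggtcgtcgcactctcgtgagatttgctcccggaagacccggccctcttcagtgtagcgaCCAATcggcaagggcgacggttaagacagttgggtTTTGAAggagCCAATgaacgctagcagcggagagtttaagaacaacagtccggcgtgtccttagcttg
Cdc25b: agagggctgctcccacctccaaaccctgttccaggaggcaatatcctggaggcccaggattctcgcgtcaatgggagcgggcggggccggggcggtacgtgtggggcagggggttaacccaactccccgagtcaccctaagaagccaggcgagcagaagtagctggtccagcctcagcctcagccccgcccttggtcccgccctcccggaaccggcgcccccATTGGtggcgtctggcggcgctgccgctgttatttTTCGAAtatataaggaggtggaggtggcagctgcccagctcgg
Fzr1: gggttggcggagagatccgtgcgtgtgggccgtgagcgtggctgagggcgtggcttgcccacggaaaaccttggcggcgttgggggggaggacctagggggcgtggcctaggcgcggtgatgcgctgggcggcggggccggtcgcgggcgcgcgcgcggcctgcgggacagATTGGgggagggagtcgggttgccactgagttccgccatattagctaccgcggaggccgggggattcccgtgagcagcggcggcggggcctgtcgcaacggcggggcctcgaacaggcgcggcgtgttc

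Ube2c held 1 CHR match on the strand opposite to the gene, at -29 to -24 bases from its start, and 6 CCAAT boxes, of which a pair on opposite strands overlap. Cdc20 held 1 CHR match at -18 to -13, between 2 CCAAT boxes. Cdc25b held the TTCGAA form at 8 to 13 after the start and 1 CCAAT box at -28 to -24. Fzr1 held 1 CCAAT box and 0 CHR matches. Of the other windows, Fbxo5 held 1 CHR match at 4 to 9 and 3 CCAAT boxes, Ube2s 1 CHR match far from the start, at -162 to -157, and Cdc25a 0 CHR matches and 2 CCAAT boxes. An E2F motif (TTTGGCGC, TTTGCCGC, TTTCGCGC or TTTCCCGC, either strand, none overlapping the other motifs here) was found in Cdc25a alone of the 7, at -67 to -60. In all 32851 windows of the same length, a CHR match was found in 19.2%, a CCAAT box in 37.4%, at least 3 CCAAT boxes in 3.37% and an E2F motif in 2.26%. In the 7 windows the counts were 5 with a CHR match, 6 with a CCAAT box and 1 with an E2F motif. Of the genes not called as higher or lower, Fbxo5 and Ube2s held a CHR match, and Fzr1 and Cdc25a did not. A match is a run of letters and not a measured binding site. The windows of Cdc25a and Cdc25b do not begin from the outermost start of the gene in the RefSeq gene table, so that distances there refer to another annotated start.

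**Figure D1:**
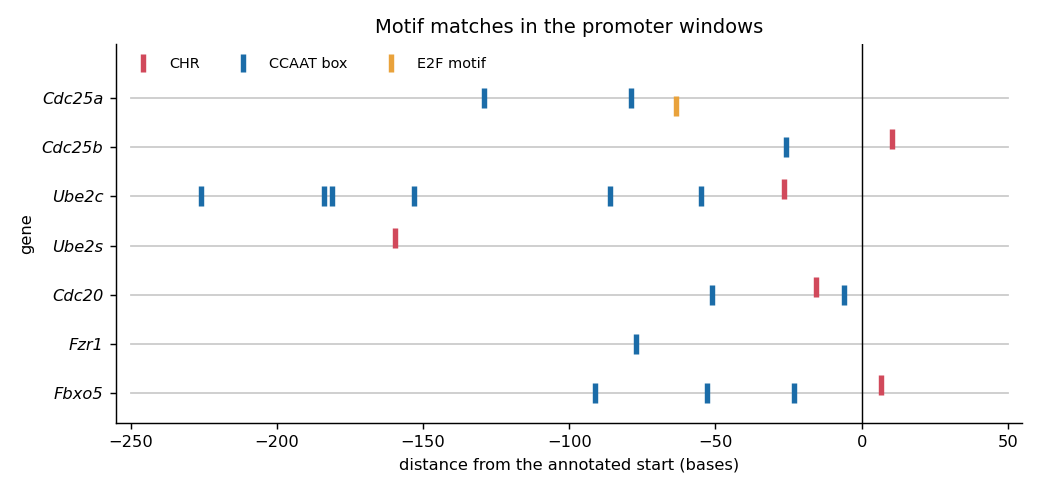
Motif matches by distance from the annotated start, in bases, in the 7 promoter windows. Red ticks are CHR matches, blue ticks CCAAT boxes and orange ticks E2F motifs, on either strand. In Ube2c, Cdc20, Cdc25b and Fbxo5 the CHR match lies within 29 bases of the start, whereas in Ube2s it lies at -162 to -157.

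Of the 9 genes, 5 were higher in CD117pos than in CD117neg cells (Cdc25b, Cdc25c, Wee1, Ube2c and Cdc20) and 0 were lower, also at an unadjusted p under 0.05 (20.4% of all genes), while Cdc25a, Ube2s, Fzr1 and Fbxo5 did not pass (limma with the mouse as a block, adjusted p under 0.05 over all 18193 named genes). In the same test 8.27% of all named genes were higher and 13.8% lower in CD117pos. The median log2 difference was 0.49 over the 9 genes and -0.01 over all genes. Differences are CD117pos minus CD117neg on the scale log2(intensity + 16), with SE from limma, and an intensity is the deposited linear value of the gene's brightest probe set. Among all called genes, the share that was higher was 37.5% for the values as given, 55.5% with quantile normalisation and 48.3% with each array centred on its median. Under these scalings 5, 7 and 6 of the 9 genes were higher and 0 lower. Over all 18193 genes the counts of higher genes were 1504, 2424 and 1944. Without mouse _948, _952 or _953 the count of higher genes among the 9 was 3 each time, and without mouse _951 it was 6. Over all genes it was 421, 584 and 416 without mouse _948, _952 and _953, and 2106 without _951. In bulk samples such as these, fewer cells of a type and less RNA per cell cannot be told apart.

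Kit itself, the gene of the sorted receptor, went from 28.6 ± 9.73 to 751 ± 127 (SD, n = 4), which checks the labels and is no finding. The CD117pos array of mouse _951 stood apart: its mean correlation with the other arrays of its fraction was 0.928, against 0.967 to 0.969 for those arrays and 0.984 to 0.988 in the CD117neg fraction. The fractions also differed in maturity. Of 10 listed genes of mature myeloid cells, 9 were lower in CD117pos and 0 higher, and their summed intensity was 36116 to 39689 in the CD117neg arrays and 958 to 4958 in the CD117pos arrays, lowest in mouse _951. How much of the differences below moves with this change in maturity was not tested. Of the markers of other cell types, 5 erythroid genes (Hba-a1, Alas2, Slc4a1, Epor and Klf1) summed to 75.5 to 98.2 in the CD117neg and 58.8 to 164 in the CD117pos arrays, with 0 called. For B cells (5 genes) the sums were 232 to 348 and 128 to 268, for T cells (5 genes) 103 to 138 and 51.2 to 557, for NK cells (3 genes) 25.7 to 62.4 and 31.0 to 44.5, for megakaryocytes and platelets (5 genes) 95.2 to 151 and 95.3 to 141, and for stroma and endothelium (4 genes) 98.2 to 116 and 72.7 to 91.9, with 0 genes called in each and, at an unadjusted p under 0.05, 1 megakaryocyte and 1 stroma gene lower. Of 4 mast cell and basophil genes, Mcpt8 was higher in CD117pos, and their sum was 80.7 to 242 and 278 to 1266. Among the CD117pos arrays, that of mouse _951 had the highest sum of every list except those of mature myeloid and B cells, where it had the lowest. No marker value was 0, and Cd3d, Cd4, Eomes and Gp9 were at exactly 1 in at least 1 array.

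**Figure D2:**
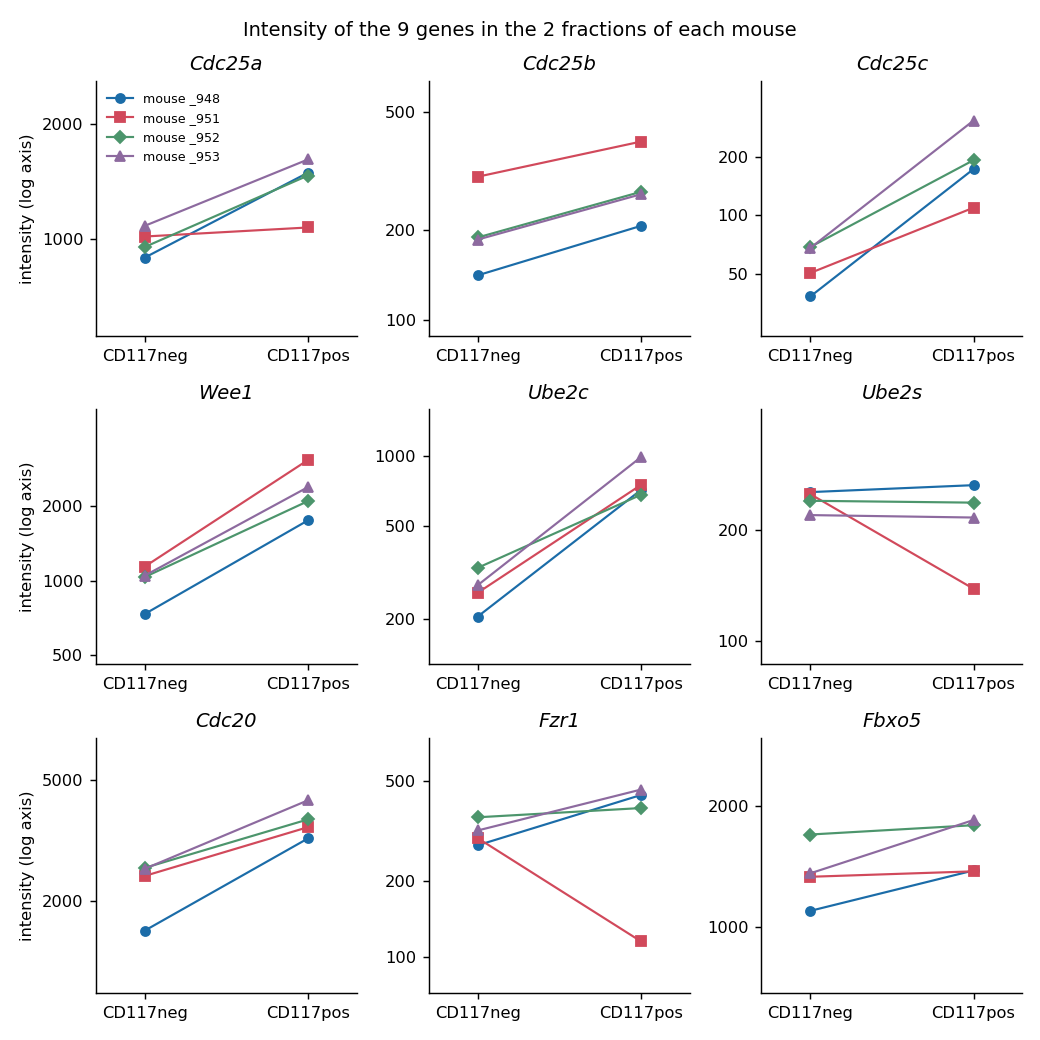
Intensity (log axis) of the brightest probe set of each of the 9 genes in the CD117neg and CD117pos arrays, with a line joining the fractions of each mouse. All 4 lines rise for Cdc25b, Cdc25c, Wee1, Ube2c and Cdc20, whereas in mouse _951 Fzr1 measured 296 in CD117neg and 116 in CD117pos, and Ube2s 249 and 139.

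Among the Cdc25 phosphatases, Cdc25c changed most. Cdc25c (probe set 1422252_a_at), which acts on Cdk1 at the onset of mitosis, measured 38.2, 50.5, 68.8 and 68.0 in the CD117neg arrays and 174, 109.6, 193 and 309 in the CD117pos arrays. All 4 CD117pos values lay above all CD117neg values, with the smallest gain in mouse _951. The means were 56.4 ± 14.8 and 196 ± 83.0 (SD, n = 4), a log2 difference of 1.49 ± 0.20 or 2.82-fold (limma, adjusted p = 0.00638). Non-overlap in this direction was seen for 4 of the 9 genes and for 10.4% of all genes, and in the opposite direction for 0 of 9 and 17.3%. A second probe set of Cdc25c, 1456077_x_at, gave a log2 difference of 1.36 ± 0.18. As the CD117neg level of Cdc25c was low, its size depended on the pseudocount, with 1.72 at a pseudocount of 1 and 1.07 at 64.

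Cdc25b, the phosphatase that starts Cdk1 activation at the centrosome (probe set 1421963_a_at), measured 141, 303, 189 and 186 in the CD117neg arrays and 207, 397, 269 and 264 in the CD117pos arrays. The groups overlapped, because mouse _951 was high in both fractions, while each mouse rose by a like amount, 0.51, 0.38, 0.48 and 0.47 on the log2 scale. The mean difference was 0.46 ± 0.11, or 1.37-fold (limma, adjusted p = 0.0313). This call rested on the pairing: without the mouse as a block the adjusted p was 0.249 (0.404 when the CD117pos array of mouse _951 was also left out), with a pseudocount of 1 it was 0.0731, and with an intensity trend in the variance prior 0.0561. It also ended without mouse _948, _952 or _953, with adjusted p between 0.116 and 0.136.

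Cdc25a, which acts on Cdk2 as well as Cdk1 (probe set 1417132_at), measured 896, 1017, 955 and 1084 in the CD117neg arrays and 1490.15, 1073, 1465 and 1613 in the CD117pos arrays. In 3 mice the CD117pos value lay above every CD117neg value, whereas in mouse _951 it was close to its partner. The log2 difference was 0.49 ± 0.15, which did not pass (limma, adjusted p = 0.0653). Without mouse _951 it was 0.63 with adjusted p = 0.012, and it also passed under several other settings given with the processing. The other probe sets of Cdc25a did not follow it: 1417131_at differed by 0.16 ± 0.21 and 1445995_at by -0.37 ± 0.13, neither past the threshold, although all 4 CD117pos values of 1445995_at lay below all CD117neg values. The probe set 1445995_at was dim, with means of 70.2 in CD117neg and 50.8 in CD117pos, against 1019 and 1153 for 1417131_at. With the mean of the 3 probe sets, each given equal weight, the difference of Cdc25a was 0.09 (limma, adjusted p = 0.71).

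Wee1, the kinase that opposes the Cdc25 phosphatases, was also higher in CD117pos cells. Its probe set 1416773_at measured 735, 1143, 1037 and 1050.4 in the CD117neg arrays and 1756, 3079.8, 2100.5 and 2392 in the CD117pos arrays. The groups did not overlap, and mouse _951 had the highest value in both fractions. The log2 difference was 1.21 ± 0.12, or 2.31-fold (limma, adjusted p = 0.00281), and 0.92 ± 0.19 for its dimmer probe set 1416774_at (adjusted p = 0.0282 over all probe sets). The difference of Cdc25c exceeded that of Wee1 by 0.28 ± 0.56 (SD, n = 4 mice), with values of 0.57, -0.50, 0.29 and 0.78, so that the mice did not share a direction (exact permutation test, two-sided p = 0.375, adjusted over 6 such pairs 0.45). In mouse _951 Cdc25c differed by 0.92, and Wee1 by 1.42 with 1416773_at but by 0.27 with 1416774_at. The negative value of that mouse thus held for the brighter Wee1 probe set only. With a pseudocount of 64 the mean of this pair turned to -0.10, and with the mean of probe sets it was 0.36. The difference of Cdc25b was below that of Wee1 in all 4 mice, by -1.04 to -0.53. The exact permutation test gave the smallest p it can reach with 4 mice (adjusted p = 0.188), which lies above the threshold whatever the values. The difference of Cdc25a relative to that of Cdc25b was 0.04 ± 0.23 (SD), from -0.30 to 0.22.

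**Figure D3:**
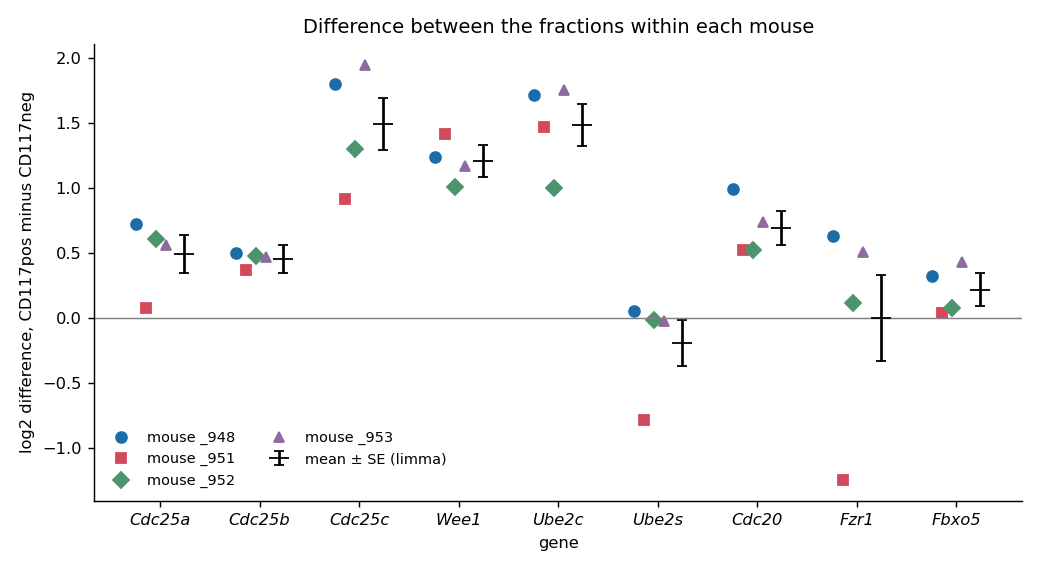
Log2 difference between the fractions within each mouse for the 9 genes (coloured symbols) with the limma mean ± SE (black bars). Cdc25b differs by 0.38 to 0.51 in all 4 mice, while Fzr1 ranges from -1.24 in mouse _951 to 0.63 in mouse _948.

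Among the enzymes that build ubiquitin chains for the APC/C, Ube2c was higher in CD117pos and Ube2s was not called. Ube2c, the chain-starting enzyme (probe set 1452954_at), measured 205, 259.6, 332 and 279.6 in the CD117neg arrays and 712, 749, 680.1 and 984 in the CD117pos arrays. Every CD117pos value was above every CD117neg value by a wide margin, mouse _951 included. The log2 difference was 1.49 ± 0.16, or 2.80-fold (limma, adjusted p = 0.00367). Ube2s, the chain-lengthening enzyme (probe set 1416726_s_at), measured 253, 249, 239 and 219 in the CD117neg arrays and 264, 139, 237 and 216 in the CD117pos arrays. In 3 mice the fractions were nearly equal and in mouse _951 the CD117pos value was low. Its difference was -0.19 ± 0.18 (limma, adjusted p = 0.516) and 0.01 without mouse _951. The difference of Ube2c exceeded that of Ube2s in all 4 mice, by 1.66, 2.25, 1.02 and 1.78, a mean of 1.68 ± 0.51 (SD). The exact permutation test over 4 mice gave the smallest p it can reach, and an adjusted p of 0.188 over the 6 pairs, so that this design cannot place the pair past the threshold.

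Of the APC/C activators, Cdc20 was higher in CD117pos cells and Fzr1 was not called. Cdc20, the mitotic activator (probe set 1439377_x_at), measured 1606, 2425, 2577 and 2560.0 in the CD117neg arrays and 3217, 3503, 3713 and 4288 in the CD117pos arrays. The groups did not overlap, and mouse _948 was lowest in both. The log2 difference was 0.70 ± 0.13, or 1.62-fold (limma, adjusted p = 0.0169). The call ended without mouse _948, _952 or _953 (adjusted p between 0.0606 and 0.0816). A further Cdc20 probe set, 1416664_at, differed by 1.09 ± 0.22 (adjusted p = 0.0256 over all probe sets), while the third, 1439394_x_at, stayed below the array median on all 8 arrays and did not pass. The ending of 1439377_x_at marks a probe set that can share sequence with other transcripts. With such probe sets left out, Cdc20 was read from 1416664_at and its difference was 1.09 in place of 0.70.

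Fzr1, the activator that holds the APC/C active in G1 (probe set 1419451_at), measured 277, 296, 358 and 317 in the CD117neg arrays and 438, 116, 389 and 460.3 in the CD117pos arrays. It was higher in CD117pos in mice _948, _952 and _953, by 0.63, 0.12 and 0.52, and lower in mouse _951, by -1.24. The mean difference was 0.00 ± 0.33 (limma, adjusted p = 0.995). Without mouse _951 it was 0.42 (adjusted p = 0.0862), and without only the CD117pos array of that mouse, in a fit without the block, 0.44 (adjusted p = 0.0285). The value for Fzr1 thus depended on 1 array. The difference of Cdc20 exceeded that of Fzr1 in all 4 mice, by 0.36, 1.77, 0.41 and 0.23, again the smallest p the exact permutation test can give (adjusted p = 0.188). Without probe sets of shared sequence the mean of this pair moved from 0.69 to 1.09, and without mouse _951 it was 0.33.

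Fbxo5, the inhibitor of the APC/C in S and G2 phase (probe set 1429499_at), measured 1099, 1336, 1702 and 1363 in the CD117neg arrays and 1385, 1378, 1795 and 1849 in the CD117pos arrays. The groups overlapped, although each mouse was higher in CD117pos, by 0.33, 0.04, 0.08 and 0.44. The difference of 0.22 ± 0.12 did not pass (limma, adjusted p = 0.279) except after quantile normalisation, where it was 0.44 (adjusted p = 0.0439). The difference of Cdc20 exceeded that of Fbxo5 by 0.48 ± 0.15 (SD), with 0.67, 0.48, 0.45 and 0.30 in the 4 mice. The exact permutation test again gave the smallest p it can reach (adjusted p = 0.188). Without probe sets of shared sequence the mean of this pair was 0.87.

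Over the 16 probe sets of the 9 genes, tested among all 45037 probe sets other than controls, 8 were higher in CD117pos and 0 lower. In the same fit 5.6% of all probe sets were higher and 10.9% lower. The 8 were both probe sets of Cdc25c and of Wee1, 2 of the 3 of Cdc20, and those of Cdc25b and Ube2c. Of the 8 that did not pass, 3 belonged to Cdc25a, 2 to Ube2s and 1 each to Cdc20, Fzr1 and Fbxo5. The count of higher probe sets was 3 without mouse _948, 4 without _952 or _953, and 4 with a pseudocount of 1, where 1416774_at of Wee1 and 1416664_at of Cdc20 were among the probe sets that lost their calls. Calls over all genes also fell under these settings, from 1504 higher genes to 421, 584, 416 and 992.

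**Figure D4:**
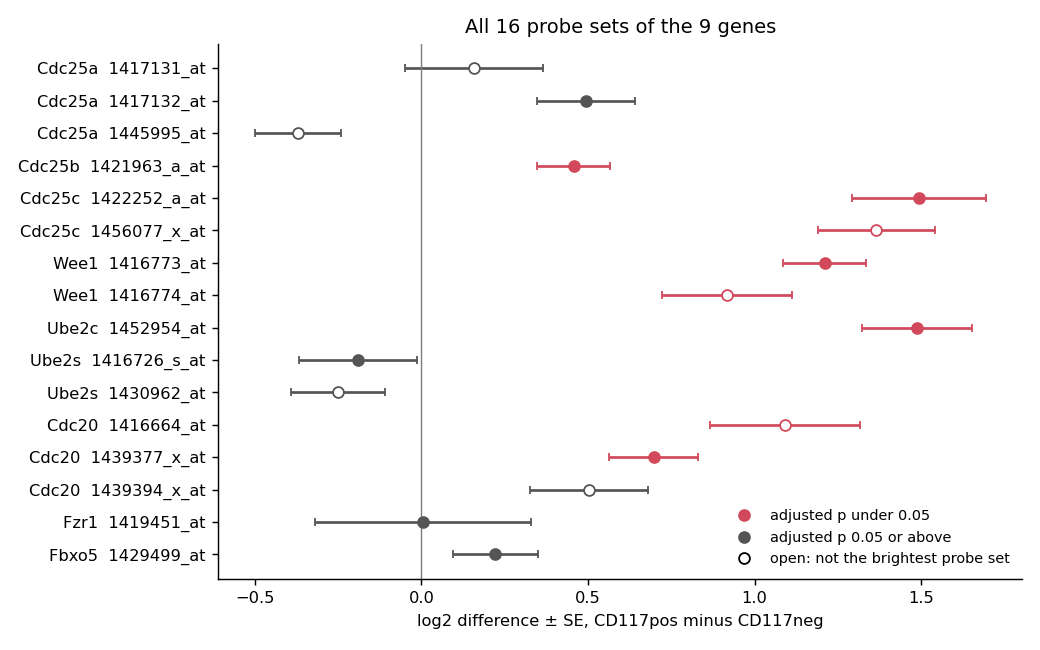
Log2 difference ± SE of all 16 probe sets of the 9 genes, in red where the adjusted p over all probe sets was under 0.05. Filled circles are the brightest probe set of a gene. The 3 probe sets of Cdc25a spread from -0.37 to 0.49, while both probe sets of Cdc25c lie at 1.36 and 1.49.

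Related genes of the same machinery were taken in 5 lists, whose counts stand beside 8.27% higher and 13.8% lower among all genes, or 14.2% and 20.4% at an unadjusted p under 0.05. Of 14 core subunits of the APC/C, 1 was higher and 0 lower (4 and 1 at an unadjusted p under 0.05), with a median of 0.17. The share of higher subunits was near that of all genes at the adjusted threshold and above it at the unadjusted threshold. All CD117pos values lay above all CD117neg values for 3 of the 14 and for 10.4% of all genes, and below them for 1 and for 17.3%. Without mouse _951 the count of higher subunits was 4. The 1 call was Cdc16, a subunit of the arm that binds the activators, which went from 509 ± 41.9 to 838 ± 101 (SD, n = 4), a difference of 0.70 ± 0.14. The Cdc16 call ended with the mean of its probe sets (0.24, adjusted p = 0.28) and without mouse _948, _952 or _953 (0.0562 to 0.0996). Of 25 measured substrates of the APC/C, 12 were higher and 0 lower (19 and 0 at an unadjusted p under 0.05), with a median of 0.81, and 25 had a positive difference. The 12 became 4 without mouse _948, 2 without _953 and 21 without _951. Tacc3, a spindle protein gene, went from 322 ± 92.5 to 806 ± 237, a difference of 1.27 ± 0.22. Aurkb, the kinase of the chromosomal passenger complex, differed by 1.23 ± 0.16 and the thymidine kinase gene Tk1 by 1.21 ± 0.18. Adjusted p among these 3 lay between 0.00601 and 0.0121. The Tacc3 call ended without mouse _948 (adjusted p = 0.0542) or _953 (0.0692), and that of Tk1 without mouse _953 (0.0566).

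Of 15 measured genes of the Cdk1 switch, which share Plk1, Ccna2 and Ccnb2 with the substrates, 7 were higher and 0 lower (8 and 1 at an unadjusted p under 0.05), with a median of 0.44. The 7 became 3, 4 and 2 without mouse _948, _952 and _953. Bora, a cofactor that helps Aurora A activate Plk1, went from 252 ± 37.1 to 602 ± 124, a difference of 1.19 ± 0.14 (limma, adjusted p = 0.00484). The mitotic kinase gene Plk1 differed by 0.99 ± 0.16 and the checkpoint kinase gene Chek2 by 0.90 ± 0.11. Without mouse _953 the Plk1 call ended (adjusted p = 0.0593). Of 12 genes of the mitotic checkpoint, which restrains Cdc20 and shares Bub1 with the substrates, 5 were higher and 0 lower (7 and 0 at an unadjusted p under 0.05), with a median of 0.74. The 5 became 1 without mouse _948 or _952 and 0 without _953. Zwilch, Kntc1 and Ttk, genes of kinetochore proteins, differed by 1.11 ± 0.22, 1.07 ± 0.17 and 1.02 ± 0.19. These 3 calls ended without mouse _953 and without mouse _952 (adjusted p between 0.0531 and 0.0872), and those of Zwilch and Ttk also without mouse _948 (0.0512 and 0.0755).

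Of 9 genes of the SCF ubiquitin ligase and other regulators of protein stability, 1 was higher and 1 lower, with a median of -0.04. Both shares were near those of all genes. Fbxo43 and Usp44 were dim in both fractions, with means of 1.28 and 16.1 in CD117neg and 2.19 and 14.2 in CD117pos. Cdc14b, a phosphatase gene whose product counters Cdk phosphorylation, went from 272 ± 46.2 to 89.8 ± 5.53, a difference of -1.43 ± 0.14 (limma, adjusted p = 0.00281). Skp1, the adaptor subunit of the SCF, went from 1294 ± 177 to 2072 ± 146, a difference of 0.68 ± 0.12, a call that ended without mouse _948, _952 or _953 (adjusted p between 0.0657 and 0.071). Ccnb1, a listed gene, was not analysed here. In mouse _951 the medians were 0.22 for the substrates, 0.17 for the Cdk1 switch and 0.10 for the mitotic checkpoint, against 0.64 to 1.23, 0.34 to 0.81 and 0.58 to 1.23 in the other mice. The median of the 9 genes was 0.38 in mouse _951 and 0.52 to 0.72 in the other mice.

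**Figure D5:**
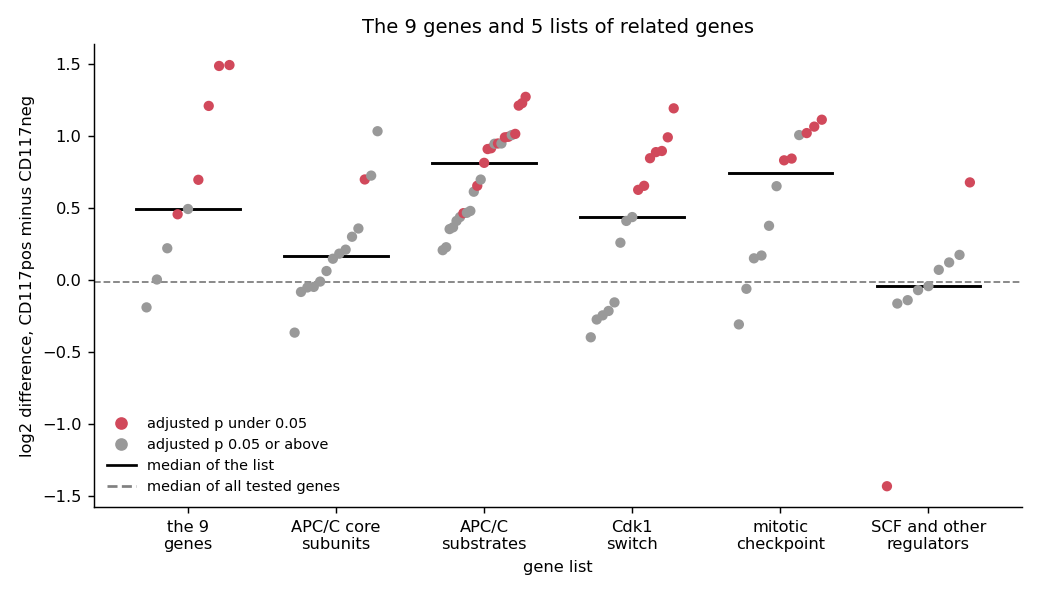
Log2 difference of each measured gene of the 9 genes and of 5 lists of related genes, in red where the adjusted p over all named genes was under 0.05, with each list's median (black bar) and the median of all tested genes (dashed line, -0.01). All 25 substrates lie above 0, while the core subunits have a median of 0.17 and 1 call.

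For each of the 5 called genes, the 2 genes nearest in pattern were sought among 9399 named genes with a mean intensity of at least 64, by the root mean square distance between log2 profiles over the 8 arrays, each centred on its own mean. Nearest to Cdc25c were Ska3, a gene of the spindle and kinetochore, at 0.17 and Tacc3 at 0.18. Nearest to Ube2c were the centriole gene Stil at 0.14 and Qtrt2 at 0.16. Nearest to Wee1 were Mns1 at 0.11 and Tedc1 at 0.13, and nearest to Cdc20 were L3mbtl2 and Carf, both at 0.09. Cdc25b, with its high values in both fractions of mouse _951, had Ppif and Snrpg at 0.16, neither of which passed the test itself (limma, adjusted p = 0.0514 and 0.0615), although each passed in 5 of the 14 alternatives. These included quantile normalisation, with adjusted p = 0.0164 for Ppif and 0.0181 for Snrpg. Without probe sets of shared sequence the difference of Snrpg was -0.12.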

How the data were processed

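Intensities of 45101 probe sets on 8 Affymetrix arrays (4 CD117pos, 4 CD117neg) were used as deposited. Per the labels, polyA RNA was prepared with an Affymetrix 2-cycle kit and carried a biotin label. The deposited values are an intensity on a linear scale, and how probes were summarised and arrays scaled was not given in the sources used here. Between 841 and 898 values per array were exactly 1. Arrays have no read depth, and their number limits the precision.

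Control probe sets (64) were dropped. Of the others, 34945 had 1 gene symbol in the platform annotation, 932 several and 9160 none listed, and 34741 matched a current mouse gene table by identifier, which changed 0 symbols. Each gene was its probe set with the highest mean intensity. Log2(intensity + 16), which understates changes of dim genes, went into limma 3.58.1 (R 4.3.3; lmFit and eBayes, two-sided, Benjamini-Hochberg, threshold 0.05), with the mouse as a block, for genes and, separately, for all probe sets. No filter on low values was applied in this fit, and all 9 genes had a mean intensity of at least 64. Per the design text each mouse gave both fractions. Deviations from the fraction means correlated across genes by 0.21, 0.22, 0.27 and 0.12 within mice _948, _951, _952 and _953, and at most 0.11 between mice. Pairs of genes were compared by exchanging fractions within mice, where the smallest p is 0.125. Replicates are separate animals.

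The code was tested on simulated data. Motifs were searched in Python 3.11.15, and figures drawn with matplotlib 3.10.9. Members and lists were chosen with earlier results of these data known. Named genes are the 9 genes, Kit, up to 3 called genes per list with the largest differences, and the 2 nearest profiles of each called gene. Hba-a1, Alas2, Slc4a1, Epor, Klf1, Mcpt8, Ms4a2, Cpa3 and Fcer1a are named as markers. Cd8a, Cd3d, Cd3e, Cd3g, Cd4, Eomes and Gp9 are named likewise. Ccna2, Ccnb2 and Bub1 are named as shared list members, and Fbxo43 and Usp44 as dim list members. Alternatives were other pseudocounts, scalings, probe set rules, filters and variance priors, no block, and leaving out each mouse or the CD117pos array of mouse _951.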

Additional observations from a re-analysis of the deposited data

Results flagged for a closer look

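In 27 groups of 4 values of the 9 genes (each fraction, and the differences within mice), the gap of the most extreme value to its neighbour was set against the whole range and Dixon's critical value. Chance passes it in about 1 of 20 groups, and 3 groups passed. For Fzr1 in the CD117pos arrays the ratio was 0.874, with mouse _951 at an intensity of 116. For the Ube2s difference between the fractions it was 0.906, with mouse _951 at -0.78. For Cdc20 in the CD117neg arrays it was 0.871, with mouse _948 low at 1606. The first 2 concern the CD117pos array that stood apart from its fraction.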

How the results depend on the processing

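Cdc25c, Wee1 and Ube2c kept their direction and their call in all 14 alternatives run, with log2 differences from 1.07 to 1.72, 1.06 to 1.41 and 1.34 to 1.68. Cdc20 kept its call in 11 and Cdc25b in 7 of 14. Cdc25a passed in 8 of 14: with a pseudocount of 64 (adjusted p = 0.0464), quantile normalisation (0.016), centring (0.0454), no replicate block (0.0429), a mean intensity of at least 64 (0.0407), an intensity trend (0.0438), without mouse _951 (0.012) and with only its CD117pos array and the block left out (0.00375). Without the mouse as a block, 5 of the 9 genes were higher, Cdc25a in place of Cdc25b. Leaving out each mouse in turn gave 3 to 6 higher genes and 3 to 9 higher probe sets of the 9 genes, with 4 higher probe sets at a pseudocount of 1. Over all genes the count of higher genes ranged from 416 to 2106 without 1 mouse, and was 992 at a pseudocount of 1.

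Of the APC/C core subunits, 2 were higher with a pseudocount of 64, with the mean of probe sets and with a mean intensity of at least 64, 3 without probe sets of shared sequence, 4 after quantile normalisation and with mouse _951's CD117pos array and the block left out, and 0 to 4 without 1 mouse. With a pseudocount of 64, the mean of probe sets, a mean intensity of at least 64 or an intensity trend, 1 core subunit was lower. Of the substrates, 20 were higher after quantile normalisation, with averaged probe sets, and with mouse _951's CD117pos array and the block left out, and 2 to 21 without 1 mouse. Of the Cdk1 switch, 2 were lower with a pseudocount of 64 and 1 with a mean intensity of at least 64, and 2 to 9 were higher without 1 mouse. Without 1 mouse, 0 to 7 genes of the mitotic checkpoint and 0 to 1 of the SCF list were higher. Among all genes, 2424 were higher after quantile normalisation and 416 to 2106 without 1 mouse, against 1504 in the main fit. The cause of these changes was not tested. Fewer arrays remain whichever mouse is left out.

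The difference of Cdc25c minus that of Wee1 turned to -0.10 with a pseudocount of 64. That of Cdc25a minus Cdc25b turned to -0.36 with the mean of probe sets and lay between -0.024 and 0.15 without 1 mouse. Differences near 0 also turned sign. Ube2s was 0.0076 without mouse _951 (between -0.27 and that value over the mice left out), and Fzr1 was -0.0084 with a pseudocount of 1 and between -0.20 and 0.42 without 1 mouse, with -0.033 without _952 and -0.17 without _953. Snrpg was -0.12 without probe sets of shared sequence.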
